A study of Mus musculus with 40 samples.

Results

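The 10 genes described here take part in granule killing and in death signaling, namely *Gzma*, *Gzmb*, *Gzmk*, *Prf1*, *Nkg7*, *Fasl*, *Fas*, *Tnfsf10*, *Serpinb9* and *Serpinb6b*. They were taken by symbol from an RNA-seq table of 21950 mouse genes, in which all 10 were found, and followed over 24 libraries in 8 groups of 3. The study asked how store-operated calcium entry and NFAT, a transcription factor that calcineurin switches on when calcium enters the cell, bear on the instability of induced regulatory T cells. All groups were splenic CD4+ cells of Foxp3 reporter mice on a C57BL/6 background. Conventional T cells (Tconvs) and thymic regulatory T cells (tTregs, called nTreg in the labels) came from mice of 2 to 4 months and were either resting or activated. For these RNA-seq libraries, the gate used for Tconvs and the length of their activation are not given in the sources used here, and tTregs were sorted as CD4+ cells with the Foxp3 reporter. Induced regulatory T cells (iTregs) were made from naive, reporter-negative CD4+ cells (CD62L high, CD44 low) of mice aged 6 weeks, with plate-bound anti-CD3 at 0.5 µg/ml, anti-CD28 at 1 µg/ml, human TGF-β at 2 ng/ml and IL-2 at 200 U/ml. After 4 days they were sorted on the reporter and rested for 1 day in IL-2 (resting iTregs), then restimulated through CD3 and CD28. The restimulated cells received no inhibitor, an inhibitor of the calcium channel ORAI or cyclosporin A (CsA), an inhibitor of calcineurin. The labels write only ORAIinh, which is taken to be CM-4620, the ORAI inhibitor that the study names for its RNA-seq. Doses and the length of inhibition in these libraries are not given in the sources used here.

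Cytotoxic lymphocytes kill by 2 routes. In the first, granules release perforin (*Prf1*), which makes pores, and granzymes, serine proteases that enter the target through them. Nkg7 is a membrane protein of these granules that takes part in their release. In the second, Fas ligand (*Fasl*) and TRAIL (*Tnfsf10*) on the cell surface engage death receptors, of which Fas is the receptor of Fas ligand. Serpinb9 is the inhibitor of granzyme B that protects the cell that carries the protease, and Serpinb6b is a serpin of the same clade. Regulatory T cells are known to use granzyme B and perforin in suppression, and *Fasl* is a known target of NFAT in T cells.

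Values are normalized counts, each library's gene counts after division by its own size factor, and SE is the standard error of a log2 fold change of normalized count + 1. A gene was called when its Benjamini-Hochberg adjusted p from limma was under 0.05 and its log2 fold change was above 0.5 in size. Lack of overlap between groups of 3 libraries is given as a description, without the share of all genes that also lacked it. The libraries held 5256800 to 15685234 reads on genes, and 3 reads, taken as the floor, were worth 2.12 to 5.45 normalized counts, which covers counting error only. Nothing says whether replicates came from separate animals or cultures, so p-values measure the spread between these libraries, which may be technical. Summed over *Cd3d*, *Cd3e*, *Cd3g*, *Cd4* and *Cd5*, T cell markers lay between 18335 and 33399 in all libraries. *Foxp3* had means of 10.4 in resting Tconvs, 7537 in resting tTregs, 1280.0 in resting iTregs and 710.3 in restimulated iTregs. Summed over *Foxp3*, *Il2ra*, *Ikzf2* and *Ctla4*, Treg markers had means of 466 in resting and 5223 in activated Tconvs. The sums were 26589 and 22698 in resting and activated tTregs, and 15151 and 12624 in resting and restimulated iTregs. With CM-4620 and CsA they were 12710 and 12638. Restimulation lowered 1 of the 4 and left 3 not called, where 12.8% of all genes were called. Markers of B cells and of myeloid cells summed to at most 22.6 and 15.0.

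**Figure D1:**
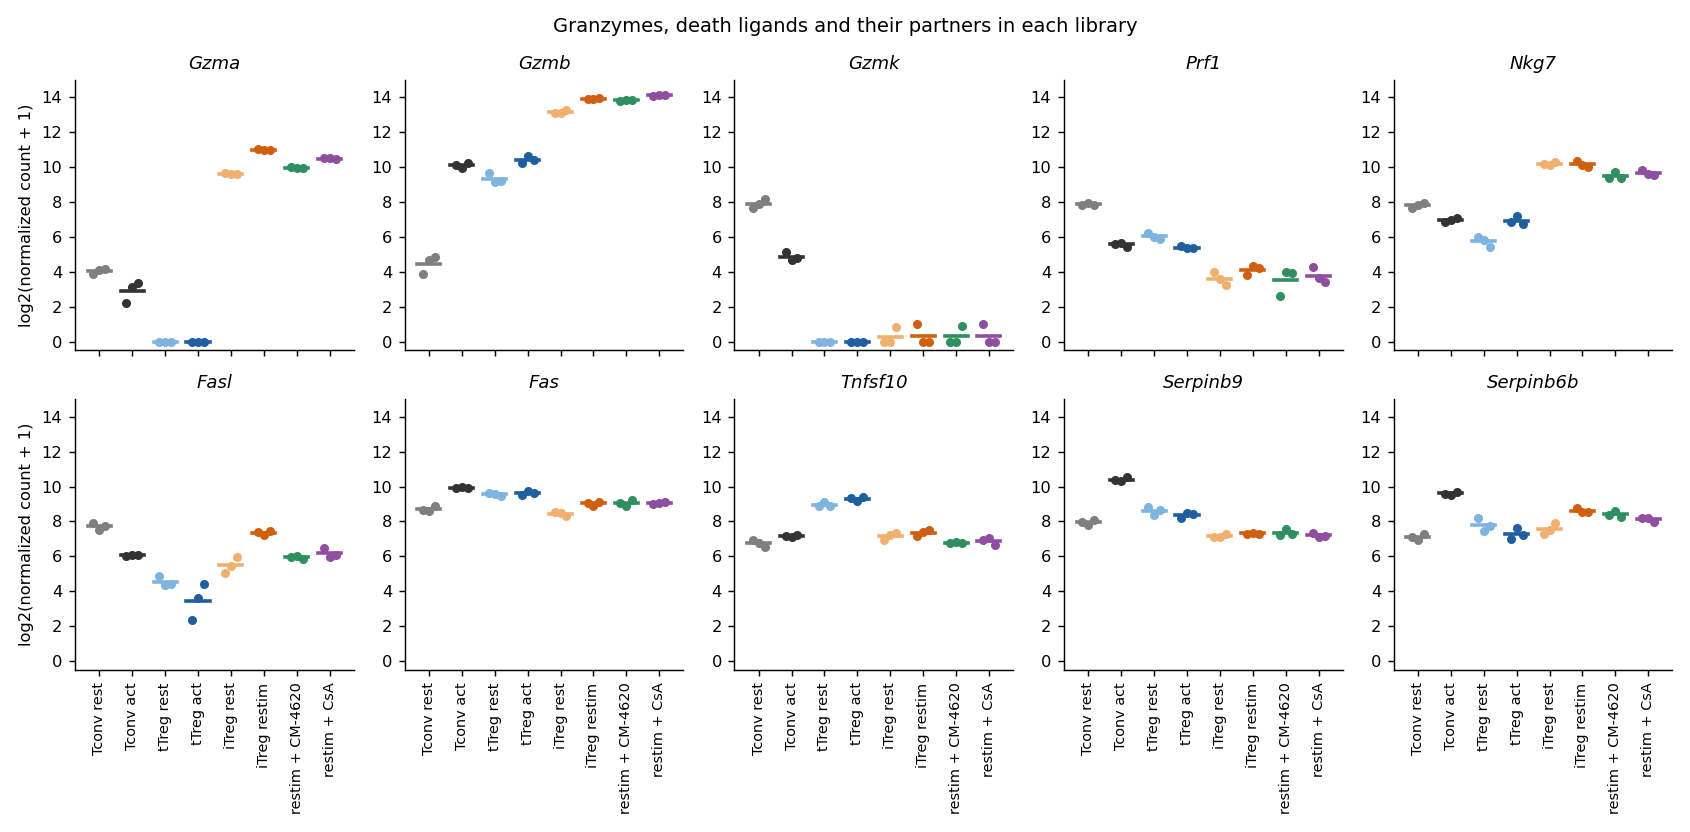
Level of the 10 genes in each library, as log2 of normalized count + 1 on one scale, with 3 points for each of the 8 groups and a bar at their mean. *Gzmb* stood highest in the 4 iTreg groups, *Gzmk* and *Prf1* in resting Tconvs, *Tnfsf10* in tTregs, and *Fas*, *Serpinb9* and *Serpinb6b* in activated Tconvs.

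The promoters of *Gzma* and *Fasl*, which rose in restimulated iTregs and were lower with both inhibitors, and of *Gzmb*, which rose and was not called as lower, are shown because the iTreg comparisons turn on these genes. *Gzma* lies at chr13:113093825-113100981, minus strand, *Gzmb* at chr14:56258838-56262260, minus strand, and *Fasl* at chr1:161780689-161788495, minus strand (GRCm38). The windows run from 250 bases before to 50 bases after the RefSeq start (GRCm38.p6), at chr13:113100932-113101231, minus strand for *Gzma*, at chr14:56262285-56262584, minus strand for *Gzmb* and at chr1:161788446-161788745, minus strand for *Fasl*. RefSeq places the start of *Gzmb* upstream of the GENCODE gene. Capitals mark GGAAA, the core bound by NFAT, and TGANTCA, the AP-1 motif, each searched on both strands, so that TTTCC marks a match to GGAAA on the other strand.
Gzma: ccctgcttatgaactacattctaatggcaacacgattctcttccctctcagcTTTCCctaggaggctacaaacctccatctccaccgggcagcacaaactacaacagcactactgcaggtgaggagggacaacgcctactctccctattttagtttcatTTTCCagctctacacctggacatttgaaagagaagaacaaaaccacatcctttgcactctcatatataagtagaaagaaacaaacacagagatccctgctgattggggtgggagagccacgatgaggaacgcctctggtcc
Gzmb: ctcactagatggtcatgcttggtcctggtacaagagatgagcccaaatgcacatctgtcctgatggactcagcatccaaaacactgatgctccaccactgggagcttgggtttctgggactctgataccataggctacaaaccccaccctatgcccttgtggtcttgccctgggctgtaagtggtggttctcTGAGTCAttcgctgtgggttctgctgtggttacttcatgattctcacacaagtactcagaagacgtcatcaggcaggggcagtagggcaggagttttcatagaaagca
Fasl: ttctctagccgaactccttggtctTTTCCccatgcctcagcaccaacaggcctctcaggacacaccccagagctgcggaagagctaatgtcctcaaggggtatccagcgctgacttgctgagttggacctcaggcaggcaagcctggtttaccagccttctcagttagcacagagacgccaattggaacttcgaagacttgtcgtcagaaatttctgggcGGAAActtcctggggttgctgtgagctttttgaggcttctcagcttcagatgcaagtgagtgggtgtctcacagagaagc
GGAAA began 198 and 91 bases before the start of *Gzma* and 226 and 30 bases before that of *Fasl*, and was not found in the window of *Gzmb*, where TGANTCA began 58 bases before the start. Among 32851 RefSeq promoters of this length, 61.3% held GGAAA at least once, 26.7% held it at least 2 times, and 7.81% held TGANTCA. A match is a description of letters and no sign of binding. GGAAA was also found 2 times in the windows of *Fas* and *Serpinb9* and 1 time in those of *Nkg7*, *Tnfsf10* and *Serpinb6b*, and TGANTCA 1 time in that of *Fas*.

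Resting tTregs and resting Tconvs differed in all 10 genes, 5 of them higher and 5 lower in tTregs, where 38.6% of the 11495 genes tested were called. The granzymes split. *Gzmb*, which cleaves caspases in the target cell, read 13.4, 24.4 and 27.2 in the resting Tconv libraries and 791, 572 and 575 in the resting tTreg libraries. The groups did not overlap, and *Gzmb* was 29.4-fold higher in tTregs (log2 fold change 4.88 ± 0.20 (SE), adjusted p = 5.9e-11). *Gzma*, a tryptase, had no read in any of the 6 tTreg libraries and read 13.4, 15.9 and 16.7 in resting Tconvs, which was at least 4.58-fold higher against the mean floor of the tTreg libraries. *Gzmk*, a granzyme known from effector memory cells (chr13:113171608-113225908, minus strand), likewise had no read in tTregs and read 202, 232 and 283 in resting Tconvs, at least 71.4-fold higher by the same floor. In bulk libraries, fewer cells that carry a transcript and less of it per cell cannot be told apart.

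The pore protein and the granule membrane protein were lower in tTregs. *Prf1* (chr10:61297833-61304680, plus strand) read 227, 248 and 226 in resting Tconvs and 73.5, 62.3 and 58.1 in resting tTregs, and was 3.59-fold lower in the latter (log2 fold change -1.84 ± 0.19 (SE), adjusted p = 1.2e-06). *Nkg7* (chr7:43437073-43438249, plus strand) was 4.16-fold lower, with 203, 226 and 246 against 63.5, 55.8 and 42.1 (log2 fold change -2.06 ± 0.16 (SE), adjusted p = 4.7e-08). Neither gene's groups overlapped. The death ligands went apart. *Fasl* read 239.6, 183 and 217 in resting Tconvs and 28.1, 19.5 and 20.5 in resting tTregs (log2 fold change -3.18 ± 0.38 (SE), adjusted p = 6.4e-06), whereas *Tnfsf10* (chr3:27317028-27342427, plus strand) read 122, 109 and 92.2 against 481, 551 and 468 and was 4.63-fold higher in tTregs (log2 fold change 2.21 ± 0.13 (SE), adjusted p = 2.7e-09). The receptor *Fas* (chr19:34290666-34327772, plus strand) was 1.80-fold higher in tTregs (log2 fold change 0.85 ± 0.10 (SE), adjusted p = 4.4e-06), *Serpinb9* (chr13:33003250-33017957, plus strand) 1.57-fold (log2 fold change 0.65 ± 0.13 (SE), adjusted p = 0.00053) and *Serpinb6b* (chr13:32965209-32979067, plus strand) 1.60-fold (log2 fold change 0.67 ± 0.21 (SE), adjusted p = 0.014). The call of *Serpinb6b* was lost without resting Tconv replicate 2 (adjusted p = 0.058) or without resting tTreg replicate 1 (adjusted p = 0.071).

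Genes of natural killer (NK) receptors were, like *Gzmk*, *Prf1*, *Fasl*, *Nkg7* and *Gzma*, higher in resting Tconvs than in activated Tconvs or tTregs. The order over the other groups varied by gene. *Prf1* was higher in resting tTregs (mean 64.6) than in activated Tconvs (mean 46.5). *Fasl* had a mean of 22.7 in resting tTregs, and of 164 in restimulated iTregs against 71.9 with CsA. *Gzma* and *Nkg7* were highest in iTregs. The 5 NK markers (*Ncr1*, *Klrb1c*, *Klre1*, *Klrd1* and *Klrk1*) summed to 494 to 511 normalized counts in resting Tconvs, to 44.0 to 61.2 in activated Tconvs and to 0 in all 6 tTreg libraries. In iTregs they summed to 52.7 to 88.0 at rest, 109.8 to 153 after restimulation, 129 to 151 with CM-4620 and 196 to 235 with CsA. Most of the sum in resting Tconvs was *Klrd1*, a partner chain of NKG2 receptors, at 389, 399.6 and 400.2. In the same libraries *Klrb1c* (NK1.1) read 30.9, 20.6 and 16.7 and *Ncr1* (NKp46) 0, 5.63 and 2.63, and both were at 0 in every iTreg library. *Cd8a* had group means of at most 9.65, while *Cd8b1* lay between 98.8 and 229. The part of other cells in the Tconv values of these genes was not tested.

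**Figure D2:**
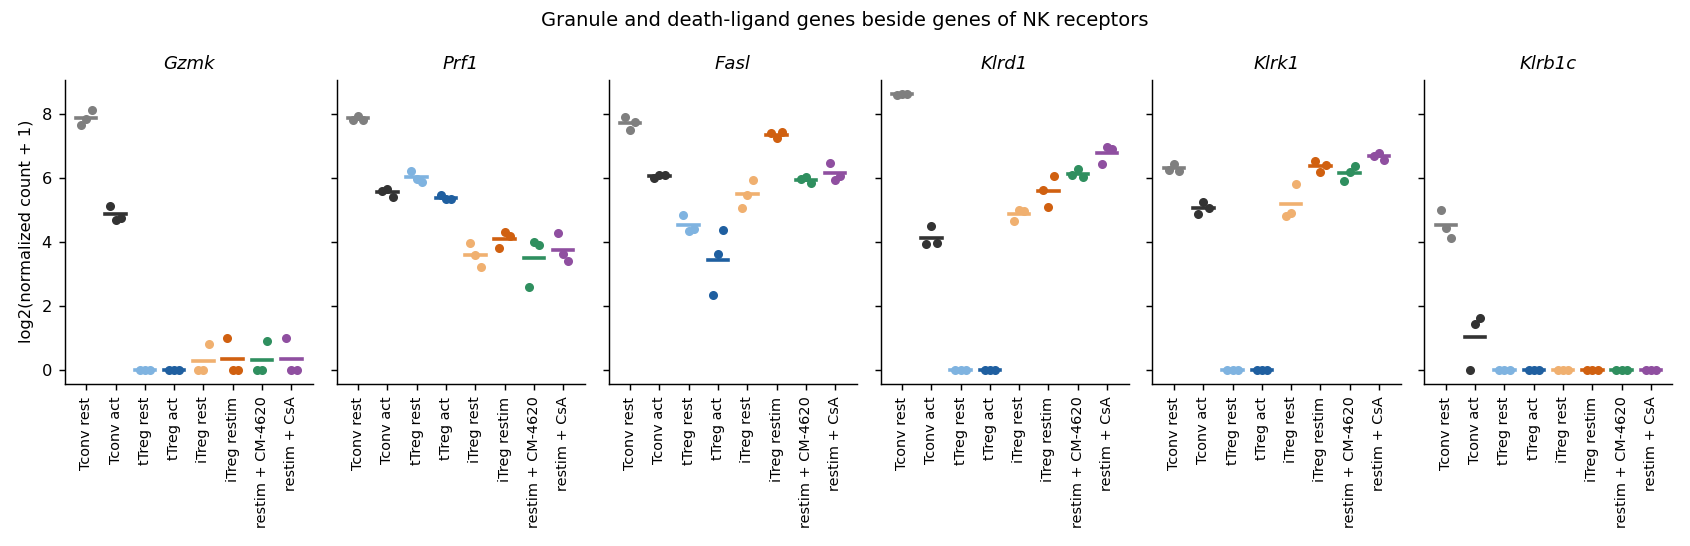
*Gzmk*, *Prf1* and *Fasl* beside 3 NK receptor genes (*Klrd1*, *Klrk1*, *Klrb1c*) in each library, as log2 of normalized count + 1, with a bar at the mean of 3 libraries. All 3 receptor genes were at 0 in tTregs, *Klrd1* and *Klrb1c* were highest in resting Tconvs, *Klrk1* was highest in CsA-treated iTregs, and *Klrb1c* was at 0 in iTregs.

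Activation moved 9 of the 10 genes in Tconvs, 4 up and 5 down, where 50.2% of all genes were called. *Gzmb* rose 50.9-fold, from 13.4, 24.4 and 27.2 to 1127, 1001 and 1199 (log2 fold change 5.67 ± 0.20 (SE), adjusted p = 1.0e-11). Both serpins rose beside it, *Serpinb9* from 251, 224 and 271 to 1316, 1255 and 1481 (log2 fold change 2.44 ± 0.13 (SE), adjusted p = 4.7e-10) and *Serpinb6b* from 138, 124 and 157 to 771, 746 and 816 (log2 fold change 2.48 ± 0.21 (SE), adjusted p = 1.0e-07). *Fas* rose 2.34-fold, to 955, 1014 and 983 from 399, 392 and 472 (log2 fold change 1.23 ± 0.10 (SE), adjusted p = 5.3e-08). None of these 4 genes overlapped between resting and activated Tconvs.

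The other granule genes and *Fasl* fell in the same Tconvs. *Gzmk* fell 8.14-fold to 34.1, 25.0 and 26.2 (log2 fold change -3.02 ± 0.32 (SE), adjusted p = 1.0e-06) and *Prf1* fell 4.95-fold to 47.6, 50.0 and 41.7 (log2 fold change -2.31 ± 0.19 (SE), adjusted p = 6.5e-08). *Fasl* fell 3.16-fold to 63.8, 67.3 and 67.9 (log2 fold change -1.66 ± 0.38 (SE), adjusted p = 0.0016), *Nkg7* 1.81-fold to 112, 122 and 136 (log2 fold change -0.86 ± 0.16 (SE), adjusted p = 0.00023), and *Gzma* 2.19-fold to 3.59, 7.76 and 9.20, on 4 to 13 reads per library (log2 fold change -1.13 ± 0.30 (SE), adjusted p = 0.004). *Tnfsf10* was not called (log2 fold change 0.41 ± 0.13, adjusted p = 0.012). Without resting Tconv replicate 1 it was called (log2 fold change 0.51, adjusted p = 0.0066). *Klrd1* fell with the granule genes, to 14.4, 21.6 and 14.9 (log2 fold change -4.49 ± 0.24, adjusted p = 7.0e-10).

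Activated tTregs differed from resting ones in 4 genes, 2 up and 2 down, against 21.9% of all genes. *Gzmb* rose 2.13-fold to 1199.9, 1571 and 1339 (log2 fold change 1.09 ± 0.20 (SE), adjusted p = 0.001) and *Nkg7* rose 2.25-fold to 116, 145 and 105 (log2 fold change 1.17 ± 0.16 (SE), adjusted p = 7.8e-05). For both genes, every activated tTreg library was above every resting one. *Prf1* fell to 43.1, 39.7 and 40.0 (log2 fold change -0.64 ± 0.19 (SE), adjusted p = 0.017) and *Fasl* to 4.04, 11.4 and 20.0, which is 3 to 12 reads per library (log2 fold change -1.10 ± 0.38 (SE), adjusted p = 0.038). These 2 falls were not stable. The call of *Prf1* was lost without resting tTreg replicate 1 (adjusted p = 0.074), and that of *Fasl* without any 1 of the 3 resting libraries (adjusted p = 0.054 to 0.11) or without activated replicate 1 (adjusted p = 0.17). *Fas* (log2 fold change 0.08 ± 0.10, adjusted p = 0.57), *Tnfsf10* (0.34 ± 0.13, adjusted p = 0.054), *Serpinb9* (-0.24 ± 0.13, adjusted p = 0.16) and *Serpinb6b* (-0.52 ± 0.21, adjusted p = 0.067) were not called. *Serpinb6b* passed as a fall without resting replicate 2 (-0.70, adjusted p = 0.027) or activated replicate 2 (-0.71, adjusted p = 0.019).

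The response itself was compared by the interaction of cell type and activation, which called 8 of the 10 genes and 34.7% of all genes. In 2 of the 8, *Gzma* and *Gzmk*, tTregs had no reads, so that the term holds only the change in Tconvs. The call of *Gzma* was lost without any 1 of the 12 libraries other than activated Tconv replicates 2 and 3 (adjusted p = 0.052 to 0.11), and edgeR and DESeq2 called neither gene (adjusted p = 1.00 and 0.58 for *Gzma*, 1.00 and 0.12 for *Gzmk*). The rise of *Gzmb* was smaller in tTregs (difference -4.58 ± 0.29, adjusted p = 2.0e-08), from a resting level that was already 29.4-fold higher. *Serpinb9* (-2.67 ± 0.18, adjusted p = 3.8e-08), *Serpinb6b* (-3.00 ± 0.30, adjusted p = 2.0e-06) and *Fas* (-1.15 ± 0.14, adjusted p = 1.4e-05) also differed, having risen in Tconvs and not been called in tTregs. *Nkg7* moved in opposite directions, down in Tconvs and up in tTregs (difference 2.03 ± 0.22, adjusted p = 5.2e-06), and *Prf1* fell less in tTregs (1.67 ± 0.27, adjusted p = 0.00018). *Fasl* (0.56 ± 0.54, adjusted p = 0.44) and *Tnfsf10* (-0.07 ± 0.18, adjusted p = 0.79) were not called, with 95% intervals of the difference from -0.60 to 1.72 and from -0.46 to 0.32. Without activated tTreg replicate 1, the difference for *Fasl* was called (1.12, adjusted p = 0.031).

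**Figure D3:**
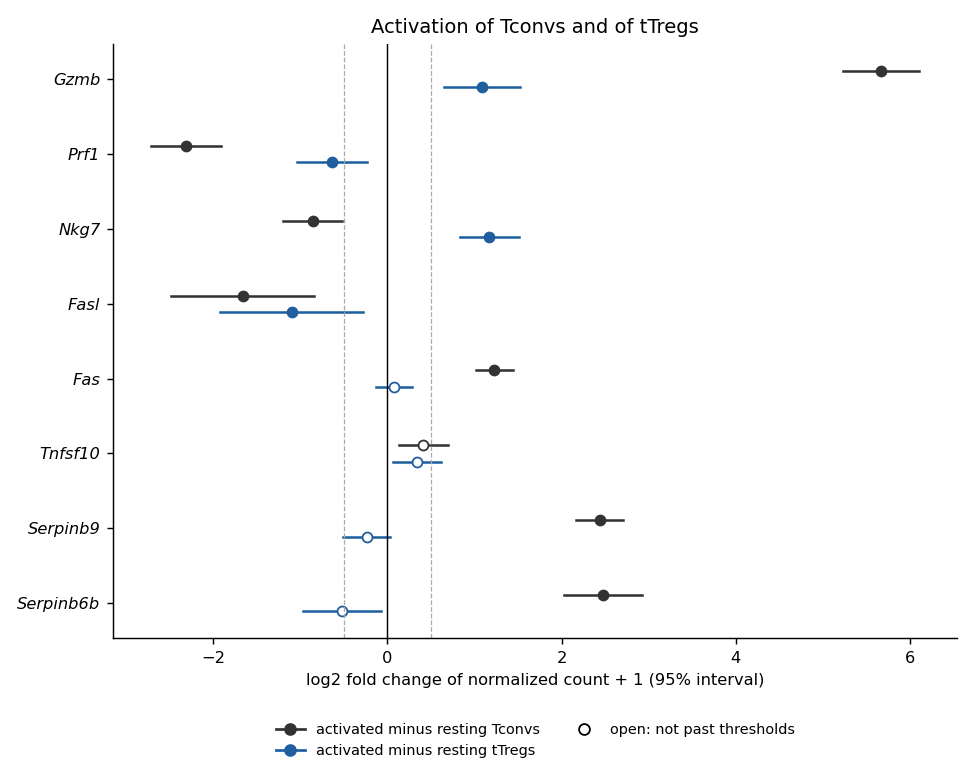
Log2 fold change of normalized count + 1 on activation in Tconvs and in tTregs, with its 95% interval, for the 8 genes that had reads in both cell types, filled where called and with dashed lines at 0.5 in both directions. *Gzmb* rose in both cell types and by more in Tconvs, *Fas* and both serpins rose in Tconvs and were not called in tTregs, and *Nkg7* went in opposite directions.

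Resting iTregs stood apart by *Gzmb*, *Gzma* and *Nkg7*. *Gzmb* read 8813, 8693 and 9899, which was 419-fold above resting Tconvs (log2 fold change 8.71 ± 0.20 (SE), adjusted p = 4.6e-14), 8.24-fold above activated Tconvs (log2 fold change 3.04 ± 0.20 (SE), adjusted p = 1.2e-08) and 14.3-fold above resting tTregs (log2 fold change 3.83 ± 0.20 (SE), adjusted p = 3.2e-10). *Gzma* read 813, 784 and 766, 48.5-fold above resting Tconvs (log2 fold change 5.60 ± 0.30 (SE), adjusted p = 2.4e-10) and at least 236-fold above the floor of resting tTregs. *Nkg7* read 1136, 1093 and 1226, 5.11-fold above resting Tconvs (log2 fold change 2.35 ± 0.16 (SE), adjusted p = 3.2e-09) and 21.3-fold above resting tTregs (log2 fold change 4.41 ± 0.16 (SE), adjusted p = 4.5e-12). For all 3 genes, every iTreg library lay above every Tconv and tTreg library. Per kb of exon, *Gzmb* ranked 105 of 21719 genes in resting iTregs, against 8429 and 701 in Tconvs at rest and activated, and 916 and 473 in the 2 tTreg groups. *Gzma* ranked 789 and *Nkg7* 479 in resting iTregs. The iTregs also came from younger mice and from an induction culture. Cell type, age and culture cannot be told apart where iTregs are compared with Tconvs or tTregs.

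The pore protein did not accompany the proteases. *Prf1* read 14.8, 11.1 and 8.35 in resting iTregs, on 11 to 14 reads per library, and was 19.3-fold below resting Tconvs (log2 fold change -4.27 ± 0.19 (SE), adjusted p = 3.0e-11) and 5.39-fold below resting tTregs (log2 fold change -2.43 ± 0.19 (SE), adjusted p = 2.0e-08). *Gzmk* had 1 read in all 3 libraries together. Resting Tconvs had 784 times its level, with a 95% counting interval from 140.3 to 31018, and activated Tconvs 91.9 times (interval 16.1 to 3665). In all, 7 of the 10 genes were called against resting Tconvs, 3 higher and 4 lower, where 63.6% of all genes were. Against activated Tconvs 8 were called, 3 higher and 5 lower (41.6% of all genes), and against resting tTregs 8, 4 in each direction (63.4% of all genes). The share of the 10 against resting Tconvs was near that of all genes.

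Ligands, receptor and inhibitors were not raised in iTregs as the proteases were. *Fasl* read 32.7, 43.4 and 60.7 in resting iTregs, 4.71-fold below resting Tconvs (log2 fold change -2.24 ± 0.38 (SE), adjusted p = 8.8e-05), and it was not called against activated Tconvs (-0.57 ± 0.38, adjusted p = 0.22, 95% interval -1.39 to 0.24), where it passed when those groups alone were fitted (adjusted p = 0.047). Against resting tTregs it was 1.93-fold higher (log2 fold change 0.95 ± 0.38 (SE), adjusted p = 0.036). That call was lost without resting tTreg replicate 2 or 3 (adjusted p = 0.098 and 0.084), without iTreg replicate 2 or 3 (adjusted p = 0.067 and 0.14) and under quantile normalization (adjusted p = 0.11). *Tnfsf10* read 123, 151 and 162 and was 3.43-fold below resting tTregs (log2 fold change -1.78 ± 0.13 (SE), adjusted p = 1.1e-08), while against activated Tconvs its difference was 0.02 ± 0.13, adjusted p = 0.92, with a 95% interval from -0.26 to 0.30.

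*Fas* at 376, 353 and 318 was 2.82-fold below activated Tconvs (log2 fold change -1.50 ± 0.10 (SE), adjusted p = 9.2e-09) and 2.16-fold below resting tTregs (log2 fold change -1.11 ± 0.10 (SE), adjusted p = 8.5e-08). *Serpinb9* at 137, 137 and 152 was lower than in each of the other cells, 1.74-fold against resting Tconvs (log2 fold change -0.80 ± 0.13 (SE), adjusted p = 3.8e-05), 9.44-fold against activated Tconvs (log2 fold change -3.24 ± 0.13 (SE), adjusted p = 3.7e-11) and 2.75-fold against resting tTregs (log2 fold change -1.46 ± 0.13 (SE), adjusted p = 7.1e-08). *Serpinb6b* at 153, 183 and 238 was 4.12-fold below activated Tconvs (log2 fold change -2.04 ± 0.21 (SE), adjusted p = 1.1e-06) and was not called against resting Tconvs (0.43 ± 0.21, adjusted p = 0.075) or resting tTregs (-0.24 ± 0.21, adjusted p = 0.31). Against resting Tconvs, *Serpinb6b* passed without iTreg replicate 1 (0.58, adjusted p = 0.033), as did *Tnfsf10* without that library (0.55, adjusted p = 0.0022) or without resting Tconv replicate 1 (0.53, adjusted p = 0.004), from 0.43 ± 0.13, adjusted p = 0.0077 with all libraries. *Fas* was -0.27 ± 0.10, adjusted p = 0.023 in that comparison.

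Restimulation of iTregs raised 5 of the 9 genes tested and lowered none, where 12.8% of the 11105 genes tested were called. The median log2 fold change of the 9 was 0.58, against -0.01 over all genes tested. These genes were chosen with earlier results of these data known. The study itself names *Gzma* and *Fasl* among genes that restimulation raised and either inhibitor held back. The counts and medians therefore describe the list and do not test it. None of the 9 was lower at an unadjusted p under 0.05 either, and edgeR and DESeq2 each called 5 higher and 0 lower. *Fasl* rose most, 3.65-fold, from 32.7, 43.4 and 60.7 to 168, 151 and 173 (log2 fold change 1.87 ± 0.20 (SE), adjusted p = 5.8e-06). *Gzma* rose 2.57-fold, from 813, 784 and 766 to 2057, 2035 and 1995 (log2 fold change 1.36 ± 0.05 (SE), adjusted p = 1.5e-10). *Gzmb*, already at 8813, 8693 and 9899, rose 1.69-fold to 15548, 14984 and 15658 (log2 fold change 0.76 ± 0.06 (SE), adjusted p = 1.4e-07). The restimulated libraries of all 3 genes lay above every resting one.

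*Serpinb6b* rose 2.07-fold, from 153, 183 and 238 to 438, 366 and 372 (log2 fold change 1.05 ± 0.14 (SE), adjusted p = 5.1e-05), and *Fas* 1.50-fold, from 376, 353 and 318 to 527, 479.6 and 565 (log2 fold change 0.58 ± 0.09 (SE), adjusted p = 0.00027). Neither gene's groups overlapped. *Nkg7* (0.01 ± 0.11, adjusted p = 0.96), *Tnfsf10* (0.16 ± 0.13, adjusted p = 0.4), *Serpinb9* (0.15 ± 0.11, adjusted p = 0.32) and *Prf1* (0.51 ± 0.40, adjusted p = 0.37) were not called. For *Nkg7* the 95% interval of the log2 fold change was -0.22 to 0.24. For *Prf1*, on 11 to 19 reads per library, it was -0.33 to 1.36, and a change of the size called in *Gzmb* was not detectable at this depth. *Gzmk* was not tested, with at most 1 read per library. The 5 calls stood without each of the 6 libraries in turn.

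The inhibitors separated these genes. With CM-4620, 4 of the 9 genes fell against restimulated iTregs and none rose (3.30% of all genes called), and with CsA 3 fell and none rose (2.92%). Both comparisons share the restimulated libraries. At an unadjusted p under 0.05, 0 genes were higher with CM-4620 and 1, *Gzmb*, with CsA, and edgeR and DESeq2 called 0 higher with either. The median log2 fold change of the 9 genes was -0.57 with CM-4620 and -0.47 with CsA, against 0.01 and -0.003 over all genes. As above, the genes were chosen with earlier results known, so these values are descriptions. *Fasl* read 62.2, 64.3 and 56.2 with CM-4620 (log2 fold change -1.42 ± 0.20 (SE), adjusted p = 0.00038) and 88.9, 60.6 and 66.4 with CsA (log2 fold change -1.19 ± 0.20 (SE), adjusted p = 0.0018), every library below the lowest restimulated one at 151. *Gzma* read 1007, 990.2 and 987 with CM-4620 (log2 fold change -1.03 ± 0.05 (SE), adjusted p = 5.2e-08) and 1459, 1438 and 1401 with CsA (log2 fold change -0.50 ± 0.05 (SE), adjusted p = 4.1e-05).

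*Gzma* was the one gene called between the inhibitors, 1.44-fold lower with CM-4620 than with CsA (log2 fold change -0.53 ± 0.05 (SE), adjusted p = 0.0001), where 0.360% of all genes were called. The 4 iTreg groups did not overlap in *Gzma* and ordered from restimulated over CsA and CM-4620 to resting. The fall with CsA lay at the threshold of size, and without restimulated replicate 1 or 2 or CsA replicate 3 it was -0.49, -0.50 and -0.49 on the log2 scale. In a fit of all 24 libraries neither that fall (adjusted p = 0.18) nor the difference between inhibitors (adjusted p = 0.58) was called, with the same log2 fold changes.

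*Nkg7* was not called on restimulation, and it was lower with both inhibitors, at 666, 845 and 663 with CM-4620 (log2 fold change -0.68 ± 0.11 (SE), adjusted p = 0.001) and at 911, 782 and 736 with CsA (log2 fold change -0.52 ± 0.11 (SE), adjusted p = 0.0079). The restimulated libraries read 1319, 1125 and 1044, above all 6 treated ones. It was also below the resting level with CM-4620 (-0.67 ± 0.11, adjusted p = 0.00056) and with CsA (-0.51 ± 0.11, adjusted p = 0.0034). The CsA call against restimulated cells was lost without restimulated replicate 1 (-0.43, adjusted p = 0.044), CsA replicate 2 (-0.50, adjusted p = 0.041) or CsA replicate 3 (-0.45, adjusted p = 0.038), all for size. Against resting cells it was lost without resting replicate 3 (-0.47), CsA replicate 2 (-0.49) or CsA replicate 3 (-0.45). *Tnfsf10* was lower with CM-4620, at 107, 111 and 108 against 141, 167 and 179.8 (log2 fold change -0.57 ± 0.13 (SE), adjusted p = 0.016). That call was lost without restimulated replicate 2 or 3 or CM-4620 replicate 1 (adjusted p = 0.065, 0.077 and 0.056). With CsA *Tnfsf10* was -0.47 ± 0.13, adjusted p = 0.042, under the threshold of size, and it passed without restimulated replicate 1 (-0.57, adjusted p = 0.034).

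*Gzmb* was not called as lower with either inhibitor. It read 13833, 14803 and 14731 with CM-4620 (log2 fold change -0.09 ± 0.06 (SE), adjusted p = 0.39) and 17368, 17848 and 17735 with CsA (log2 fold change 0.20 ± 0.06 (SE), adjusted p = 0.041), neither past both thresholds, with 95% intervals of -0.21 to 0.03 and 0.08 to 0.32. Every CsA library lay above every restimulated one, by less than the threshold of size. Between the inhibitors *Gzmb* differed by -0.29 ± 0.06, adjusted p = 0.021, also under that threshold. *Fas* differed from the restimulated level by 0.02 ± 0.09, adjusted p = 0.93 with CM-4620 and by 0.01 ± 0.09, adjusted p = 0.98 with CsA, with intervals of -0.18 to 0.22 and -0.19 to 0.21. *Serpinb9* differed by 0.04 ± 0.11, adjusted p = 0.88 and -0.09 ± 0.11, adjusted p = 0.69, *Serpinb6b* by -0.21 ± 0.14, adjusted p = 0.45 and -0.49 ± 0.14, adjusted p = 0.042, and *Prf1* by -0.61 ± 0.40, adjusted p = 0.44 and -0.34 ± 0.40, adjusted p = 0.67. None of these was called, though *Serpinb6b* with CsA passed by edgeR (-0.50, adjusted p = 0.037) and under quantile normalization (-0.50, adjusted p = 0.036).

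**Figure D4:**
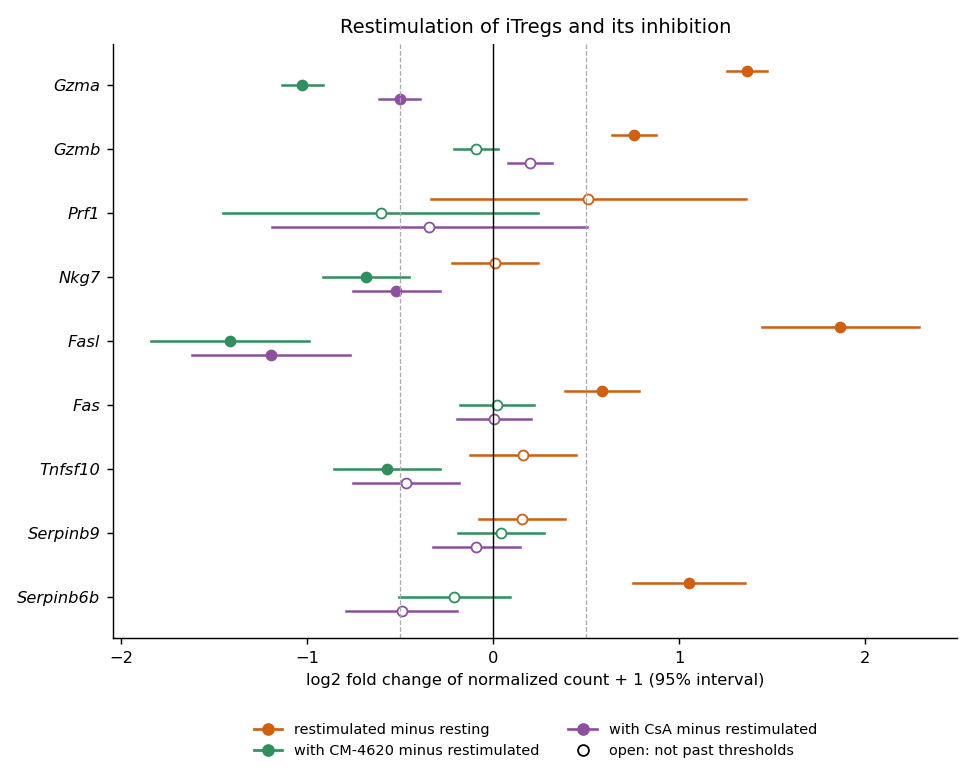
Log2 fold change of normalized count + 1 on restimulation of iTregs, and with CM-4620 or CsA against restimulated iTregs, with 95% intervals, for the 9 genes tested, filled where called and with dashed lines at 0.5 in both directions. *Fasl* and *Gzma* rose and were lowered by both inhibitors, and *Nkg7* was lowered without having risen. *Gzmb*, *Fas* and *Serpinb6b* rose and were not called as lower with either, though *Serpinb6b* with CsA lay just under the threshold of size.

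Set against the resting level, the same genes showed how much of the rise was left. With CM-4620, 4 genes were called against resting iTregs, 3 higher and 1 lower (7.10% of all genes), and with CsA 6, 5 higher and 1 lower (9.43%). *Gzmb* stayed above resting with CM-4620 (0.66 ± 0.06, adjusted p = 1.3e-06) and with CsA (0.95 ± 0.06, adjusted p = 1.9e-08), as did *Fas* (0.61 ± 0.09, adjusted p = 0.00039 and 0.59 ± 0.09, adjusted p = 0.00037) and *Serpinb6b* (0.84 ± 0.14, adjusted p = 0.00071 and 0.56 ± 0.14, adjusted p = 0.0095). *Gzma* stayed above resting with CsA (0.86 ± 0.05, adjusted p = 2.5e-08), while with CM-4620 it was 0.34 ± 0.05, adjusted p = 0.00038, under the threshold of size. *Fasl* was not called with CM-4620 (0.45 ± 0.20, adjusted p = 0.13) and was called with CsA (0.67 ± 0.20, adjusted p = 0.023).

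The *Fasl* call with CsA was lost without resting replicate 1 (0.46, adjusted p = 0.092), resting replicate 2 (0.66, adjusted p = 0.054) or CsA replicate 1 (0.51, adjusted p = 0.1), and with CM-4620 a call was made without resting replicate 3 (0.68, adjusted p = 0.021). *Serpinb6b* with CsA fell under the threshold of size without resting replicate 1 (0.41, adjusted p = 0.041). *Tnfsf10* was -0.41 ± 0.13, adjusted p = 0.045 with CM-4620 and -0.31 ± 0.13, adjusted p = 0.11 with CsA, and passed with CM-4620 without resting replicate 1 (-0.52, adjusted p = 0.018).

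Restimulated iTregs were also set beside the activated cells, in a fit of all 24 libraries with 11725 genes. Against activated Tconvs 9 of the 10 genes were called, 4 higher and 5 lower (44.3% of all genes), and against activated tTregs 9, 5 higher and 4 lower (59.3%). *Gzmb* was 13.9-fold above activated Tconvs (log2 fold change 3.80 ± 0.17 (SE), adjusted p = 3.2e-14) and 11.3-fold above activated tTregs (log2 fold change 3.50 ± 0.17 (SE), adjusted p = 7.8e-14), and *Nkg7* 9.33-fold (log2 fold change 3.22 ± 0.15 (SE), adjusted p = 4.7e-14) and 9.50-fold (log2 fold change 3.25 ± 0.15 (SE), adjusted p = 2.6e-14). *Gzma* was 273-fold above activated Tconvs (log2 fold change 8.09 ± 0.19 (SE), adjusted p = 1.8e-18) and at least 494-fold above the floor of activated tTregs. Activated Tconvs held 4 to 13 *Gzma* reads per library. The SE pools the spread of all groups, among them tTregs at 0, and may understate the spread in activated Tconvs. *Fasl* was 2.45-fold (log2 fold change 1.29 ± 0.33 (SE), adjusted p = 0.0018) and 15.1-fold higher (log2 fold change 3.91 ± 0.33 (SE), adjusted p = 6.9e-10).

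The lower genes of that comparison were *Serpinb9*, 8.49-fold below activated Tconvs (log2 fold change -3.09 ± 0.12 (SE), adjusted p = 3.3e-15) and 2.09-fold below activated tTregs (log2 fold change -1.07 ± 0.12 (SE), adjusted p = 6.7e-08), *Prf1* (-1.45 ± 0.29, adjusted p = 0.00021 and -1.28 ± 0.29, adjusted p = 0.00055) and *Fas* (-0.91 ± 0.10, adjusted p = 4.3e-08 and -0.61 ± 0.10, adjusted p = 7.8e-06). *Tnfsf10* was 3.89-fold below activated tTregs (log2 fold change -1.96 ± 0.13 (SE), adjusted p = 1.2e-11) and 0.18 ± 0.13, adjusted p = 0.24 against activated Tconvs. *Serpinb6b* was lower than in activated Tconvs (-0.99 ± 0.18, adjusted p = 9.1e-05) and higher than in activated tTregs (1.34 ± 0.18, adjusted p = 1.4e-06). Activated Tconvs had 84.2 times the *Gzmk* level of restimulated iTregs, with a 95% counting interval from 14.8 to 3359 on 1 read in iTregs.

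Levels of different genes were compared per kb of exon. The protease *Gzmb* stood at 0.213 ± 0.0728 (SD, n = 3) times its inhibitor *Serpinb9* in Tconvs at rest and at 2.00 ± 0.0747 once activated. In tTregs it was 3.99 ± 0.464 at rest and 10.00 ± 0.603 after activation. In iTregs the ratio was 156 ± 2.27 at rest, 237 ± 11.3 after restimulation, 217 ± 21.4 with CM-4620 and 290.3 ± 24.5 with CsA. Resting Tconvs were the one group below 1, with 0.130, 0.265 and 0.244 in its libraries, and all 12 iTreg libraries lay above all others. Against *Prf1*, *Gzmb* stood at 0.167 ± 0.0563 in resting Tconvs and at 1539.5 ± 541 in resting iTregs, where *Prf1* had few reads. The ratio of *Gzmb* to *Gzma* in iTregs was 8.14 ± 0.793 at rest, 5.32 ± 0.171 after restimulation, 10.2 ± 0.485 with CM-4620 and 8.64 ± 0.269 with CsA.

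The ligand *Fasl* was below its receptor *Fas* per kb in every library. The ratio of *Fasl* to *Fas* was 0.542 ± 0.0847 in resting and 0.0717 ± 0.00157 in activated Tconvs, 0.0318 ± 0.00484 in resting and 0.0155 ± 0.0104 in activated tTregs, and 0.142 ± 0.0563 in resting iTregs. It read 0.340, 0.336 and 0.325 in restimulated iTregs, 0.126, 0.143 and 0.101 with CM-4620 and 0.189, 0.123 and 0.129 with CsA. The restimulated libraries were above all resting and treated iTreg libraries, which overlapped among themselves.

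**Figure D5:**
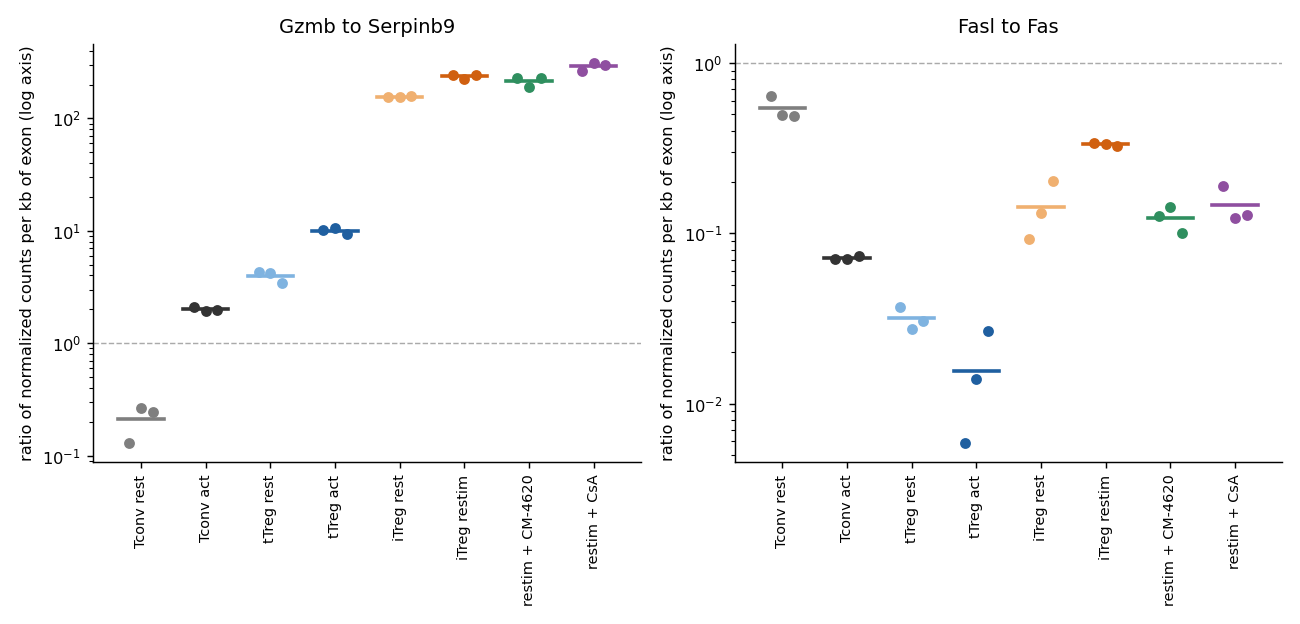
Ratio of *Gzmb* to *Serpinb9* and of *Fasl* to *Fas* in normalized counts per kb of exon, on log axes, for each library with a bar at the mean of 3, and a dashed line at 1. *Gzmb* was below *Serpinb9* in resting Tconvs and between 154 and 311 times above it in iTreg libraries, and *Fasl* was below *Fas* throughout.

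The order of the 8 groups differed between genes. *Gzmb* was highest with CsA, then restimulated, with CM-4620 and resting iTregs, then activated tTregs, activated Tconvs, resting tTregs and resting Tconvs, and no pair of neighbors in that order overlapped. *Gzma* had the same lack of overlap from restimulated iTregs down to activated Tconvs, above tTregs at 0. *Fasl* was highest in resting Tconvs and next in restimulated iTregs, while CsA-treated iTregs, activated Tconvs, CM-4620-treated and resting iTregs overlapped each with its neighbor, above tTregs. *Tnfsf10* ordered activated tTregs, then resting tTregs, then the remaining groups at means of 108 to 163. *Nkg7* was highest in restimulated and resting iTregs, which overlapped, then with CsA and CM-4620, which overlapped, then in resting Tconvs, in activated Tconvs and tTregs, which overlapped, and in resting tTregs. *Fas* and *Serpinb9* were highest in activated Tconvs and lowest in resting iTregs, and the 4 iTreg groups overlapped in *Serpinb9*, at means of 142 to 164. *Prf1* ordered resting Tconvs, resting tTregs, activated Tconvs and activated tTregs, of which the last pair overlapped, above the 4 iTreg groups, which overlapped at means of 11.4 to 16.5.

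Other genes of the same pathways were taken from lists. Their counts are to be read against the share of all genes called, 12.8% on restimulation, 3.30% with CM-4620 and 2.92% with CsA, and 50.2% and 21.9% on activation of Tconvs and tTregs. Of 7 further granzymes, only *Gzmc* passed the filter on low values, and its means lay between 3.56 in resting Tconvs and 48.8 in activated tTregs. *Gzmc* rose on activation in Tconvs (log2 fold change 2.62 ± 0.30, adjusted p = 2.7e-06) and tTregs (1.99 ± 0.30, adjusted p = 0.00021), fell in restimulated iTregs (-1.01 ± 0.27, adjusted p = 0.01), unlike *Gzma* and *Gzmb*, and was higher with CsA (0.91 ± 0.27, adjusted p = 0.048). Of 14 genes of granule packing and release, 2 rose on restimulation of iTregs and none fell, *Lamp2* (0.73 ± 0.07, adjusted p = 2.8e-06), a lysosomal membrane protein, and *Stx11* (0.58 ± 0.12, adjusted p = 0.0027), a syntaxin of granule fusion. *Stx11* was the one of the 14 that fell with CM-4620 (-0.73 ± 0.12, adjusted p = 0.0018), and none was called with CsA, where 1 was higher and 3 lower at an unadjusted p under 0.05 and edgeR and DESeq2 also called 0. In resting iTregs against resting tTregs 4 of the 14 were higher and 2 lower, a smaller part than the 63.4% of all genes called there, among them *Cst7* (2.41 ± 0.14, adjusted p = 9.0e-10), the cystatin F that inhibits granule cathepsins, *Ctsw* (2.30 ± 0.19, adjusted p = 4.1e-08), cathepsin W, and *Lyst* (-1.92 ± 0.11, adjusted p = 4.5e-10), a protein of lysosome traffic. In activated tTregs 3 were higher and 2 lower than in resting ones, led by *Stx11* (1.11 ± 0.29, adjusted p = 0.0093). In activated Tconvs 5 were higher and 1 lower than in resting ones, with a median log2 fold change of 0.28 against -0.04 over all genes.

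Of 18 genes of the death receptor pathway, 1 rose and 1 fell on restimulation of iTregs, *Casp6* (0.60 ± 0.09, adjusted p = 0.00019), an effector caspase, and *Tnfrsf1a* (-0.53 ± 0.12, adjusted p = 0.0039), the TNF receptor TNFR1, and none was called with either inhibitor against restimulated cells by limma, edgeR or DESeq2. At an unadjusted p under 0.05, 0 were higher and 1 lower with CM-4620, and 2 were higher and 1 lower with CsA. In resting iTregs against resting tTregs 3 were higher and 9 lower, near the 63.4% of all genes called there, with *Birc2* (-1.74 ± 0.11, adjusted p = 2.6e-09), an inhibitor of apoptosis, among the lower. On activation 6 of the 18 rose and 5 fell in Tconvs (50.2% of all genes called), and 2 rose and 3 fell in tTregs (21.9%), both near the share of all genes. Of 11 other ligands of the TNF family, 9 were tested and 1 rose and 3 fell in restimulated iTregs. The one that rose was *Tnfsf14* (1.23 ± 0.12, adjusted p = 3.4e-06), the ligand LIGHT, which read 70.6, 58.5 and 65.3 at rest and 144, 147 and 169 after restimulation. Like *Fasl*, *Tnfsf14* was lower with CM-4620 (-0.68 ± 0.12, adjusted p = 0.0029) and with CsA (-0.66 ± 0.12, adjusted p = 0.0038), the only one of the 9 that limma called in either comparison. On activation 5 of the 9 were higher and 2 lower in Tconvs, and 0 higher and 3 lower in tTregs (1 higher at an unadjusted p under 0.05 in limma). The interaction called 7 of the 9, with the tTreg response above that of Tconvs in 2 and below it in 5 (34.7% of all genes called). *Lta*, lymphotoxin alpha, read 99.8, 109.7 and 114 in resting and 1518, 1786 and 1631 in activated Tconvs (log2 fold change 3.92 ± 0.09, adjusted p = 1.3e-13), and *Tnfsf11*, the ligand RANKL, fell in tTregs (-1.35 ± 0.33, adjusted p = 0.0062).

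Of 11 other serpins, 4 passed the filter. Unlike *Serpinb9*, all 4 were higher in resting iTregs than in resting Tconvs (63.6% of all genes called). Their median log2 fold change there was 1.94, against 0.02 over all genes. Against activated Tconvs 3 were higher and 0 lower (41.6% of all genes), and against resting tTregs 3 and 0 (63.4%). On restimulation of iTregs *Serpina3f* rose (1.34 ± 0.15, adjusted p = 1.2e-05) and *Serpinb1a* fell (-1.25 ± 0.22, adjusted p = 0.00054). *Serpinb1a* was higher with CM-4620 (0.81 ± 0.22, adjusted p = 0.032) and with CsA (0.91 ± 0.22, adjusted p = 0.019), and *Serpinb6a*, next of kin to *Serpinb6b*, was higher with CsA (0.69 ± 0.08, adjusted p = 0.00018). Of 8 transcription factors tied to the cytotoxic program, 7 were tested. On activation 3 rose and 2 fell in Tconvs, with *Eomes* from 9.26, 8.44 and 14.0 to 295, 306 and 277, and 2 rose and 1 fell in tTregs. In restimulated iTregs 3 rose and 1 fell. *Tbx21*, which encodes T-bet, rose from 83.3, 98.9 and 54.6 to 175, 226 and 123 (1.13 ± 0.34, adjusted p = 0.021) and fell with CM-4620 to 88.8, 61.6 and 28.1 (-1.64 ± 0.34, adjusted p = 0.0077). With CsA it read 84.8, 105 and 68.0, each below the lowest restimulated library at 123, and was not called. *Zeb2* rose (1.19 ± 0.16, adjusted p = 4.2e-05) and fell with both CM-4620 (-0.61 ± 0.16, adjusted p = 0.025) and CsA (-0.78 ± 0.16, adjusted p = 0.006), and *Eomes* fell on restimulation (-0.73 ± 0.23, adjusted p = 0.029). *Id2* was higher with CsA than in restimulated iTregs (0.72 ± 0.07, adjusted p = 4.4e-05) and lower with CM-4620 than with CsA (-0.58 ± 0.07, adjusted p = 0.001).

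Genes of like pattern were sought among 10123 genes by Pearson's r over the 8 group means of log2 normalized count + 1, as a description without a test, since the 8 points share cell types and treatments. The 3 nearest to *Gzma* were *Spp1* (r = 0.995), *Sema4f* (0.99) and *Gngt2* (0.99), and to *Gzmb* they were *Dhdds* (0.996), *Fabp5* (0.99) and *Zfp296* (0.99). *Gzmk* was nearest to *Cxcr6* (0.996), *Nhej1* (0.99) and *Vps28* (0.99), *Prf1* to *Rnf167* (0.996), *Pnrc2* (0.99) and *Dstyk* (0.99), and *Nkg7* to *Me2* (0.99), *Gnl1* (0.99) and *Oxsr1* (0.99). *Fasl* was nearest to *Chp1* (0.97), *Phf20* (0.97) and *Enc1* (0.96), *Tnfsf10* to *Ttc37* (0.99), *Itgb8* (0.99) and *Trim37* (0.98), and *Fas* to *Samhd1* (0.98), *Parp10* (0.98) and *Immp2l* (0.97). The serpins were nearest to *Xrcc5* (0.98), *Ncoa7* (0.98) and *Ttc27* (0.97) for *Serpinb9* and to *Gbp10* (0.98), *Cd274* (0.97) and *Mettl16* (0.96) for *Serpinb6b*. No member was among the 3 nearest of another. A like r does not mean a like size: *Dhdds* spanned 213 to 453 normalized counts and *Gzmb* 21.7 to 17650.4.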

How the data were processed

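RNA-seq libraries were made by the authors from sorted cells with a SMART-seq2 protocol, which does not mark the strand. Per the study's methods and processing notes, reads were trimmed with cutadapt 1.18, aligned to GRCm38 with STAR 2.5.3 and counted with RSEM 1.3.0 on GENCODE genes. The values the authors deposited are a signal, namely counts that were divided by a size factor for each library. They were whole multiples of the smallest value in 100% of cases (tolerance 0.01 read), which gave back the reads. All 24 libraries and no other column were used. Log2(value + 1), with 1 the pseudocount, was fitted with limma 3.58.1 (R 4.3.3, trended variance) on genes that reached 10 normalized counts in 3 or more libraries of a fit. One fit held the 15 Tconv, tTreg and resting iTreg libraries, one the 12 iTreg libraries and one all 24. Calls used the study's DESeq2 thresholds. Replicates differed by 2.69 to 36.3 times the variance of counting, so none was a copy of another. Lengths and positions came from GENCODE release M21, which gave a length to 98.9% of genes. No member's exons overlapped another gene. Of the listed genes 1 was not matched by symbol and not analysed here.

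The members and lists were chosen with earlier results of these data known. The named genes were all members in every comparison, and from each list up to 3 genes with the largest change among those called, of which some are printed, plus marker genes and, per member, the 3 genes of highest correlation over group means of at least 50. Alternatives were other scalings, pseudocounts of 0.1 and 5, no filter, other sets of libraries, the replicate number as a block, each library left out, a log2 fold change above 1, and edgeR 4.0.16 (quasi-likelihood, TMM) and DESeq2 1.42.0 on the reads. Simulated data had one spread for all genes and groups, unlike the real libraries, and fewer changed genes than the real comparisons called. Recovery in the real fits may therefore differ. The fit was tested on these simulated data with 200 changed genes. It called 163 of them in Tconv activation (11157 genes; 65 at a log2 change of 1 and 98 at 2, of equal numbers of each) and 173 in iTreg restimulation (10984 genes; 75 and 98), with 4 and 9 unchanged genes called.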

Additional observations from a re-analysis of the deposited data

Results flagged for a closer look

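The interaction of cell type and activation called 8 of the 10 genes, where 34.7% of all genes tested were called. *Gzma* and *Gzmk*, which had no reads in tTregs, are left out here. For the other 6 genes, the tTreg response minus the Tconv response is given on the log2 scale (limma, adjusted over 11495 genes). *Gzmb* differed by -4.58 ± 0.29, adjusted p = 2.0e-08, *Serpinb6b* by -3.00 ± 0.30, adjusted p = 2.0e-06 and *Serpinb9* by -2.67 ± 0.18, adjusted p = 3.8e-08. All 3 rose in Tconvs, and of them only *Gzmb* was called as higher in activated tTregs. *Fas* differed by -1.15 ± 0.14, adjusted p = 1.4e-05, *Nkg7* by 2.03 ± 0.22, adjusted p = 5.2e-06 and *Prf1* by 1.67 ± 0.27, adjusted p = 0.00018. In *Nkg7* every activated Tconv library was below every resting one, and every activated tTreg library was above every resting one. The 5 NK markers also fell in the same Tconvs, from a summed mean of 501 to 52.1. The part of other cells in the Tconv values of *Nkg7* and *Prf1* was not tested. With 3 libraries per group, single libraries were not tested for standing apart.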

How the results depend on the processing

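No call on a single gene changed direction under any alternative. Of the results for single genes under alternatives, 2381 kept their side of the thresholds, 88 lost a call and 15 gained one. With a log2 fold change above 1, restimulation called 3 genes in place of 5, CM-4620 against restimulated iTregs 2 in place of 4, CsA against restimulated 1 in place of 3, and CM-4620 against CsA, CM-4620 against resting and CsA against resting 0 in place of 1, 4 and 6, since none of the genes called there had a change above 1. In a fit of all 24 libraries CsA against restimulated called 1 gene and CM-4620 against CsA 0 (limma; 1 at an unadjusted p under 0.05, and 1 by edgeR and by DESeq2 on 12 libraries). Fitting only resting and activated tTregs called 2 genes in place of 4, losing *Prf1* and *Fasl*, and *Fasl* was also lost there by edgeR (adjusted p = 0.051) and with no filter (adjusted p = 0.055), and *Prf1* with all 24 libraries (adjusted p = 0.088), while *Serpinb6b* was gained with all 24 and by DESeq2. Leaving out each library in turn gave 2 to 5 calls for tTreg activation, 7 to 8 for the interaction, 1 to 3 for CsA and 3 to 4 for CM-4620 against restimulated iTregs, 4 to 5 for CsA and for CM-4620 against resting, 5 to 5 for restimulation, 9 to 10 for Tconv activation and for resting tTregs against Tconvs, 7 to 9 for resting iTregs against resting Tconvs, 7 to 8 against resting tTregs, 8 to 8 against activated Tconvs, 1 to 1 between the inhibitors and 9 to 9 for restimulated iTregs against activated Tconvs or tTregs. Deviations of same-numbered libraries from their group means had a mean correlation of -0.01 over the 15 Tconv, tTreg and resting iTreg libraries (from -0.42 to 0.24) against 0.003 between different numbers. Over the 12 iTreg libraries it was 0.15 (from -0.04 to 0.30; 10 of 18 pairs above 0.1) against -0.08, and 10 of the 12 correlated best with their own number, a hint of pairing from the data, not from the design. Since not every pair passed 0.1, the numbers are not taken to pair the samples. With the block, calls over all genes went from 1425 to 1500 on restimulation, from 366 to 420 with CM-4620 and from 324 to 372 with CsA. Among the 10 genes, with a replicate block the interaction called 7 in place of 8, losing *Gzma* (adjusted p = 0.052), and no other count among them changed. Quantile normalization moved the median of all genes to between -0.12 and -0.10 in resting iTregs against Tconvs and tTregs, and of these genes only the call of *Fasl* against resting tTregs was lost with it there. Few reads limit *Gzmk* and *Prf1* in iTregs, *Gzma* in activated Tconvs and *Fasl* in activated tTregs.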

Other observations

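*Klrd1*, a partner chain of NKG2 receptors and one of the NK markers, rose in restimulated iTregs from 24.2, 31.3 and 30.4 to 48.3, 33.6 and 66.3 (log2 fold change 0.72 ± 0.22, adjusted p = 0.023), and was higher again with CsA at 86.9, 124 and 121 (adjusted p = 0.0042). *Klrk1*, the gene of NKG2D, rose from 27.4, 29.3 and 55.4 to 92.7, 72.8 and 83.6 (1.20 ± 0.22, adjusted p = 0.00095) and read 102, 109 and 94.4 with CsA and 59.2, 72.2 and 82.5 with CM-4620, neither of which was called against restimulated cells. Unlike *Fasl* and *Gzma*, neither gene was called as lower with an inhibitor. Both were at 0 in all tTreg libraries.

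*Gzmb* took 0.0841% of all normalized counts on genes in resting iTregs, 0.140% in restimulated iTregs and 0.161% with CsA.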
